A study of Mus musculus with 105 samples.

Results

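Car4, Enpp2, Grm6, Ccdc194 and Gbp2 are genes that rose steeply when female mouse embryonic stem cells (mESCs) left the naive state. They were selected on their measured increases with results of these data known, and the contrast that chose them is not stated. The 3 largest increases from day 0 to day 1, 2 or 3 of differentiation in bulk RNA of the line TX1072, a rule found afterwards, together name exactly these 5 of the 52108 genes in the bulk tables. An increase counted there where its adjusted p was below 0.05, no replicate of the 2 days overlapped and the mean count was at least 100. Since the deletion lines and single cells may also have entered the choice, no increase over day 0 is independent of it, and all of them are given as a description. The same genes were also read on each allele and between later days. Changes between later days are not independent of the choice either, since a gene may have been chosen for its highest days.

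TX1072 cells are F1 hybrid female mESCs, with 1 set of chromosomes from the strain C57BL6/J (B6) and 1 from Cast/EiJ (Cast). On the B6 X, Xist stands behind a promoter that responds to doxycycline. TXdXicB6 and TXdXicCast derive from TX1072 and are 1 clone each. They lack a 773 kb stretch around Xist, the X inactivation center (Xic), on the B6 X (X, 103182701 to 103955531) or the Cast X (X, 103182257 to 103955698, mm10). Every line was kept in serum with Lif and the inhibitors of Gsk3 and MEK known as 2i, and was differentiated for 0 to 4 days by 2i/Lif withdrawal, with 3 replicates per line and day. The depth per library ran from 19827011 to 39628784 counts for TX1072, from 20246434 to 49962859 for TXdXicB6 and from 16906263 to 57920260 for TXdXicCast. Single TX1072 cells came from 1 culture per day, the one that also gave bulk replicate 1. The TXdXicCast day 0 RNA was degraded and was fragmented more gently, so comparisons from day 1 are given too. A line and its clone cannot be told apart, and TX1072 and the deletion lines were prepared with different kits and sequencers, so their levels are only set side by side.

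The 5 genes come from different pathways. Withdrawal of 2i/Lif releases the MEK/ERK cascade and ends Gsk3 inhibition and Lif signaling, and mESCs then pass from the naive to the formative state. Car4 is a carbonic anhydrase held on the outer cell surface by a lipid anchor, where it interconverts carbon dioxide and bicarbonate. Enpp2, or autotaxin, is a secreted lysophospholipase D that makes the lipid mediator lysophosphatidic acid (LPA). Grm6 is a metabotropic glutamate receptor best known from ON bipolar cells of the retina, Gbp2 is a GTPase that interferons induce, and Ccdc194 is a little-studied coiled-coil protein.

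At day 0 the TX1072 cells expressed the pluripotency factors Pou5f1 and Nanog, at 1120 ± 205 and 1080 ± 170 CPM (counts scaled to library size with TMM factors, mean ± SD, n = 3). From day 1 the 5 genes took separate courses. In bulk RNA, fewer cells that express a gene and less RNA per cell cannot be told apart.

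**Figure D1:**
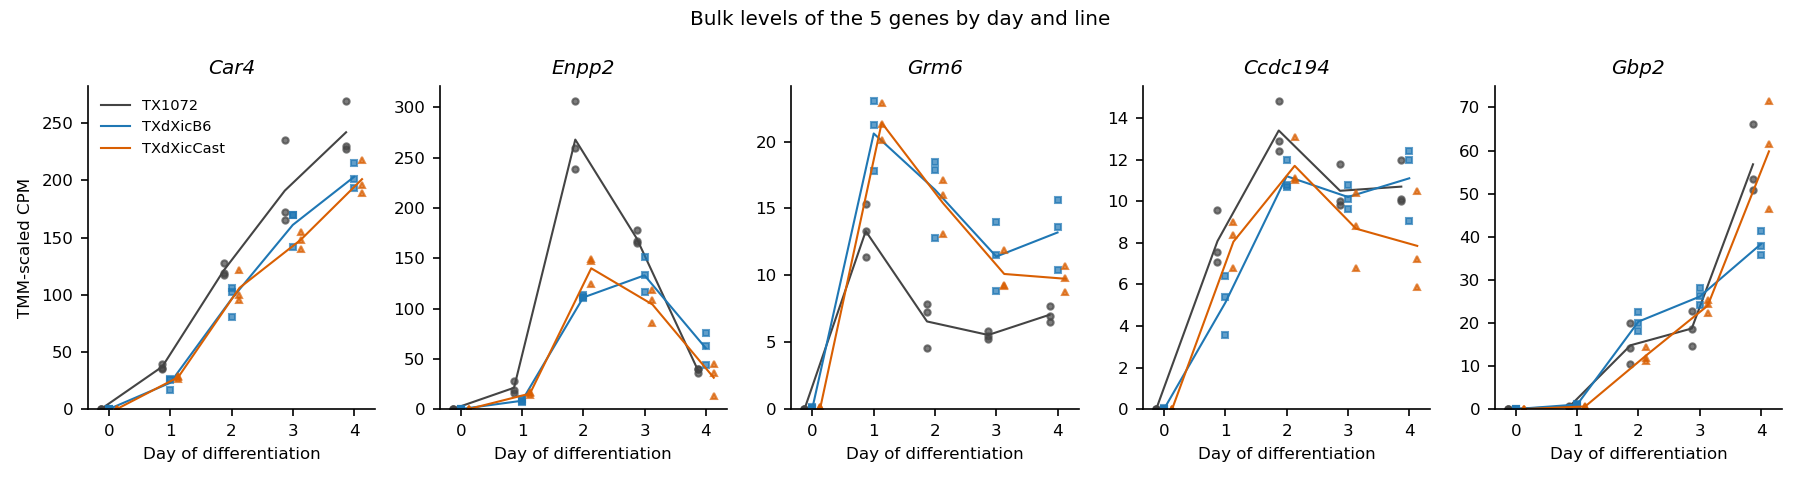
Each panel plots the TMM-scaled CPM of 1 gene (y axis) against the day of differentiation (x axis). Points are the 3 replicates and lines join the means of TX1072 (grey circles), TXdXicB6 (blue squares) and TXdXicCast (orange triangles). Car4 and Gbp2 have their highest mean at day 4, Enpp2 at day 2 or 3, Grm6 at day 1 and Ccdc194 at day 2.

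Onset fell on day 1 for every one of the 5 genes in each of the 3 lines. Onset was the first day with all replicates above the highest day 0 replicate and a mean at least 2 times that of day 0. Because the genes were selected on such increases, this is a description, and the share of all genes that meet the rule is not given. Peaks were spread over days 1 to 4. Among genes that met the limits given above (adjusted p, no overlap, mean count), the third largest edgeR increase from day 0 to day 1 was Car4. Its log2 fold change was 9.51, just ahead of Spry4 with 9.47, which fell outside. Over all genes tested, Car4 ranked 5th on that day. At day 2 the third was Ccdc194 with 11.69, ahead of Car4 with 11.22, and at day 3 it was Car4 with 11.87, ahead of Ccdc194 with 11.35. By day 4, under the same limits, Gbp2 held the first rank with 13.78, Tagln the second with 12.25 and Car4 the third with 12.22. Enpp2 stood 13th with 9.96 there, and 16th over all genes tested. For genes without a count at day 0, these fitted values depend on the small constant that edgeR adds.

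Car4 (ENSMUSG00000000805, chromosome 11, 84957786 to 84966044, mm10) had a higher mean on each day than on the day before in all 3 lines, as did Gbp2. TX1072 replicates held 1, 3 and 0 counts at day 0, and then 35.1, 39.7 and 36.3 CPM at day 1, 119, 117 and 128 CPM at day 2, 172, 235 and 165 CPM at day 3 and 227, 269 and 230 CPM at day 4. All replicates of a day lay above those of the day before, except that days 3 and 4 overlapped. From 4 counts over the 3 day 0 libraries, the ratio of summed, depth-scaled counts was 796 at day 1 (exact counting interval at 95% confidence, 311 to 2920) and 5180 at day 4 (2020 to 19000). Counting intervals cover counting error only, since reads are not independent molecules. The deletion lines had the same order of days, with means of 23.0 ± 5.26, 96.2 ± 13.5, 161 ± 16.1 and 203 ± 10.9 CPM on days 1 to 4 in TXdXicB6. TXdXicCast had 27.9 ± 1.12, 106 ± 14.2, 148 ± 7.44 and 201 ± 15.1 CPM. In both of them day 4 lay above day 3 in every replicate.

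Enpp2 (ENSMUSG00000022425, chromosome 15, 54838901 to 54952892) was highest at day 2 or 3 and lower again by day 4. Its 3 TX1072 replicates held 28.4, 16.0 and 19.3 CPM at day 1, 239, 306 and 260 CPM at day 2, 165, 178 and 167 CPM at day 3 and 40.3, 36.2 and 40.3 CPM at day 4. No replicates overlapped between neighbouring days, and the day 4 mean was 14.5% of the day 2 peak. Day 0 held 3 counts over the group, so that day 2 stood 7720 times above it (2640 to 37500) and day 4 still 1110 times (380 to 5390). Enpp2 peaked later in TXdXicB6, at day 3, with 116, 151 and 133 CPM against 113, 111 and 110 CPM at day 2. TXdXicCast peaked at day 2, with 124, 149 and 147 CPM. At day 4 the replicates were 62.5, 75.5 and 43.7 CPM in TXdXicB6 and 35.5, 45.0 and 13.1 CPM in TXdXicCast, which is 45.5% and 22.3% of the peak. The third TXdXicCast replicate was the lowest of these, and the highest TXdXicCast replicate overlapped the lowest of TXdXicB6.

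Grm6 (ENSMUSG00000000617, chromosome 11, 50850685 to 50866208) was highest on the first day. No TX1072 library held a count at day 0, and the replicates then held 11.4, 15.3 and 13.3 CPM at day 1, 7.27, 4.54 and 7.83 CPM at day 2, 5.85, 5.27 and 5.5 CPM at day 3 and 6.49, 7.72 and 6.93 CPM at day 4. Day 1 lay above every later replicate and was at least 384-fold higher than day 0, taking 3 counts over the day 0 group as its floor. Days 2 to 4 differed little, and days 2 and 4 overlapped. In TXdXicB6 the means were 20.6 ± 2.64 CPM at day 1 and 13.2 ± 2.62 CPM at day 4, and in TXdXicCast 21.4 ± 1.43 and 9.74 ± 0.954 CPM. The TXdXicB6 replicates of days 1 and 2 overlapped (17.8 and 18.5 CPM), those of TXdXicCast did not. An antisense gene within Grm6, Gm12660, stood at 1.65, 1.84 and 2.09 CPM at day 1 in TX1072, TXdXicB6 and TXdXicCast and was at 0 in every day 0 library. The strand setting of the counting is not given in the sources used here, so reads of both cannot be told apart.

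Ccdc194 (ENSMUSG00000108900, chromosome 8, 71520120 to 71525711) stood at 60.4%, 45.9% and 68.6% of its day 2 peak by day 1 in TX1072, TXdXicB6 and TXdXicCast. From no count at day 0, the TX1072 replicates reached 7.57, 9.59 and 7.07 CPM at day 1, 12.4, 12.9 and 14.8 CPM at day 2, 11.8, 9.84 and 10.0 CPM at day 3 and 12, 10.1 and 10.0 CPM at day 4. Day 2 lay above all other days, at least 385-fold above day 0, but only by a small step over days 3 and 4, which overlapped each other. In TXdXicB6 the means were 5.13 ± 1.45, 11.2 ± 0.743, 10.2 ± 0.568 and 11.1 ± 1.82 CPM on days 1 to 4, so that days 2 and 4 were level. In TXdXicCast the day 1 mean of 8.05 ± 1.12 CPM was followed by 11.7 ± 1.17 at day 2 and 7.85 ± 2.37 at day 4. An overlapping pseudogene, Gm7850, was at 1.21, 1.08 and 1.21 CPM at day 1 in TX1072, TXdXicB6 and TXdXicCast.

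Gbp2 (ENSMUSG00000028270, chromosome 3, 142620602 to 142638008) was at 0.97%, 2.76% and 1.01% of its day 4 peak at day 1 in TX1072, TXdXicB6 and TXdXicCast, the lowest shares of the 5 genes. Its TX1072 replicates held no count at day 0, 0.786, 0.470 and 0.395 CPM at day 1, 19.9, 14.2 and 10.4 CPM at day 2, 22.8, 18.5 and 14.7 CPM at day 3 and 50.8, 53.3 and 66.1 CPM at day 4. Days 2 and 3 overlapped, and day 4 lay 3.04 times above day 3 with a clear gap. Against the floor of 3 counts over the day 0 group, the increase was at least 15.6-fold at day 1 and at least 1630-fold at day 4. In TXdXicB6 day 4 replicates held 37.8, 41.3 and 35.7 CPM, and in TXdXicCast 46.5, 61.6 and 71.4 CPM. The 2 lines did not overlap at day 4, with TXdXicCast higher, nor at day 2, where TXdXicB6 was higher (20.3 ± 2.17 against 12.5 ± 1.65 CPM). The neighbour Gbp2b, which is close to Gbp2 in sequence, held at most 0.159 ± 0.083 CPM in any group of the 3 lines, its TX1072 day 4 mean.

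Per kilobase of exon, the TX1072 day 4 levels were ordered Car4, Gbp2, Enpp2, Ccdc194 and Grm6, at 123 ± 12, 22.6 ± 3.27, 6.74 ± 0.408, 5.89 ± 0.623 and 1.30 ± 0.115 CPM per kb. Of these neighbours, the Enpp2 and Ccdc194 levels differed by little more than their SDs. At day 1 the order on the same scale was Car4, Ccdc194, Enpp2, Grm6 and Gbp2, with 18.8 ± 1.21, 4.44 ± 0.733, 3.68 ± 1.11, 2.46 ± 0.363 and 0.219 ± 0.0826 CPM per kb, where Ccdc194 and Enpp2 lay within their SDs of each other.

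Because Gbp2 is a known interferon target, the 250 bases before its RefSeq start are shown (GRCm38.p6, plus strand, chr3:142620413-142620662). Capitals mark an AP-1 match (TGANTCA) and a match to the interferon-stimulated response element, here on the opposite strand.
Gbp2: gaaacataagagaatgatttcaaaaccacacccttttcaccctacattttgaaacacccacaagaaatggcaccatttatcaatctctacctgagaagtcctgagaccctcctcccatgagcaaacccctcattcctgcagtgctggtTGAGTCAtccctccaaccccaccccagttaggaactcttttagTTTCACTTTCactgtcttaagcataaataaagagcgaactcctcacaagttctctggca
These matches begin 102 and 59 bases before the start. Of 32851 promoter windows in the RefSeq table (250 bases before to 50 after a start), 7.81% hold the first and 3.44% the second on either strand. A window was found for 4 of the 5 genes, that of Enpp2 being missing. In these, neither the STAT letters TTCNNNGAA, the TCF/LEF letters CTTTGAA, the octamer ATGCAAAT nor the E-box CACGTG was found, and neither interferon element nor AP-1 letters were found in Car4, Grm6 or Ccdc194. The GATA letters AGATAA occur at 2 places in the Grm6 window and in 11.2% of all windows, and GGGCGG occurs once in that of Ccdc194 (35.7%). TATAAA occurs once in that of Car4 (13.6%), but 42 bases after the start and not before it.

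The deletion lines were fitted together over all genes of their 30 libraries (edgeR quasi-likelihood test with Benjamini-Hochberg adjustment over 19885 genes). The 5 genes all passed the filter on low counts there, as they did in TX1072. No day 0 library reached the minimum of this filter for any of them, so that they passed it only through the later days and had to be higher there. All 5 genes were called higher than at day 0 on every day in both lines, as a description. In TXdXicB6, 23.9%, 28.9%, 29.8% and 30.0% of all genes tested were higher on days 1 to 4. In TXdXicCast, the shares were 30.6%, 34.5%, 35.8% and 36.2%. No day 0 library of either line held more than 9 counts of any of the 5 genes. In summed counts, day 4 over day 0 came to 5290 for Car4 in TXdXicB6 (1810 to 25700) and 2710 in TXdXicCast (1320 to 6740). For Grm6, whose day 0 counts were 8 and 15, it was the smallest of the 5, with 131 (66.4 to 304) and 61.9 (37.4 to 111). With 1 replicate left out in turn, the fitted log2 values of Car4 ranged from 11.67 to 13.19 in TXdXicB6 and 10.77 to 12.28 in TXdXicCast. Those of Grm6 ranged from 6.6 to 7.5 and from 5.8 to 6.29.

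After day 1 the genes separated. In TX1072, Grm6 had the largest increase over day 0 at day 1, Enpp2 at day 2 and Gbp2 at day 3. Changes between later days may thus follow in part from the choice of the genes, and their tests are not free of it. In TXdXicB6, 4 of 5 were higher at day 4 than at day 1 and Grm6 was lower, where 27.9% of all genes were higher and 28.7% lower. The log2 changes were 5.17 ± 0.18 (SE) for Gbp2, 3.14 ± 0.17 for Car4, 2.87 ± 0.28 for Enpp2, 1.12 ± 0.21 for Ccdc194 and -0.64 ± 0.17 for Grm6 (edgeR adjusted p = 0.00263). In TXdXicCast, 3 of 5 were higher and Grm6 lower (background 29.3% and 30.1%), with 6.62 ± 0.20 for Gbp2, 2.85 ± 0.17 for Car4, 1.02 ± 0.26 for Enpp2 (edgeR adjusted p = 0.00146, 0.107 without replicate 2) and -1.14 ± 0.18 for Grm6. The value of Ccdc194 was -0.03 ± 0.21 (edgeR adjusted p = 0.918).

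From day 2 to day 4, a comparison added after the values were seen, Car4 and Gbp2 still rose and Enpp2 fell in both lines. Enpp2 fell by 0.88 on the log2 scale in TXdXicB6 (SE 0.25, edgeR adjusted p = 0.00518, 0.052 without replicate 1) and by 2.17 in TXdXicCast (SE 0.26, adjusted p = 9.57e-08). Car4 rose by 1.08 ± 0.16 and 0.93 ± 0.16 and Gbp2 by 0.92 ± 0.14 and 2.26 ± 0.14. Grm6 and Ccdc194 were lower in TXdXicCast, with log2 changes of -0.66 ± 0.18 (edgeR adjusted p = 0.00268, 0.0556 without replicate 1) and -0.57 ± 0.21 (0.0221, and 0.0913 without replicate 2 or 0.148 without replicate 3). In TXdXicB6 their changes were -0.31 ± 0.17 (0.151) and -0.00 ± 0.20 (0.997). Of all genes, 23.9% were higher and 22.9% lower in TXdXicB6, and 25.4% and 24.5% in TXdXicCast.

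Whether a change differed between the deletion lines was tested as an interaction. For the change from day 0 to day 4 none of the 5 genes passed (edgeR adjusted p between 0.28 and 0.983), where 15.0% of all genes did. These 2979 genes became 75 higher and 23 lower without replicate 3, 922 and 672 without replicate 1, and 1025 and 787 without replicate 2. The intervals of the log2 differences of the 5 genes were wide. They ran from -2.79 to 1.05 for Car4, -5.55 to 3.14 for Enpp2 and -2.23 to 0.19 for Grm6. Those of Ccdc194 and Gbp2 ran from -5.95 to 5.43 and from -2.15 to 3.9. With so few day 0 counts, this comparison cannot show that the lines behaved alike. For the change from day 1 to day 4, 0.749% of all genes passed, among them Enpp2 and Gbp2. Enpp2 gained less in TXdXicCast, with a difference of -1.86 ± 0.37 on the log2 scale (edgeR adjusted p = 0.0176), and Gbp2 gained more, with 1.44 ± 0.28 (0.0124). Ccdc194 had a difference of -1.15 ± 0.30 that did not pass (0.0674), but passed with the replicate number as a block (-1.18, adjusted p = 0.017). Car4 differed by -0.29, with an interval from -0.73 to 0.16, and Grm6 by -0.50, from -0.99 to -0.01 (adjusted p = 0.714 and 0.474).

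The difference of Gbp2 was also there from day 2 to day 4, at 1.34 ± 0.19 (edgeR adjusted p = 0.00212), where 0.241% of all genes passed. Enpp2 differed by -1.29 ± 0.35, which passed only with the replicate block (adjusted p = 0.14 without and 0.0431 with it) or without the filter on low counts. These calls rest on few libraries, and without 1 replicate at most 28 genes in all were higher and 5 lower from day 1 to day 4, and at most 5 higher from day 2 to day 4. The day 1 to day 4 call of Gbp2 was lost without replicate 1, 2 or 3 (adjusted p = 0.182, 0.15 and 0.227), that of Enpp2 without replicate 1 (0.272) or 2 (0.15), and the day 2 to day 4 call of Gbp2 without replicate 2 (0.379) or 3 (0.0574).

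In single cells, transcripts were counted by unique molecular identifiers (UMIs), which give the share of cells with at least 1 UMI of a gene beside its level (CPM of the UMIs summed over a day's cells). The share also depends on the level and on the depth per cell. The UMI table held 1472 retained cells, between 257 and 341 per day, with median UMI totals per cell of 138565, 124651, 125591, 130377 and 171158 on days 0 to 4. Only the day 1 cells were sequenced in 2 runs, in High Output and in Rapid Run mode, and the part of this in the day 1 values was not tested. There was 1 culture per day, so the values have no replicate check and no p-value, and intervals (exact Clopper-Pearson for shares, Poisson for levels) cover counting error only. Ccdc194 appears there as C430049E01Rik. In the UMI table none of the 5 genes had a UMI in any of the 277 day 0 cells. A limit of 3 counts of the total allows up to 1.08% of cells with a UMI for each gene, and the exact Clopper-Pearson interval up to 1.32%. This does not limit the cells that express a gene without yielding a UMI, and the separate unspliced counts held 1 of Enpp2 and 1 of Ccdc194 at day 0. Of 44 capture sites listed as empty on days 1 to 4, with a median of 10047 UMIs, 29 held a UMI of Car4, 11 of Enpp2, 2 of Grm6, 4 of Ccdc194 and 10 of Gbp2, in sum 154, 23, 2, 5 and 30 UMIs against 172, 29.0, 4.52, 4.40 and 20.3 at the level of the retained cells. The part of such RNA in the shares of cells was not tested.

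**Figure D2:**
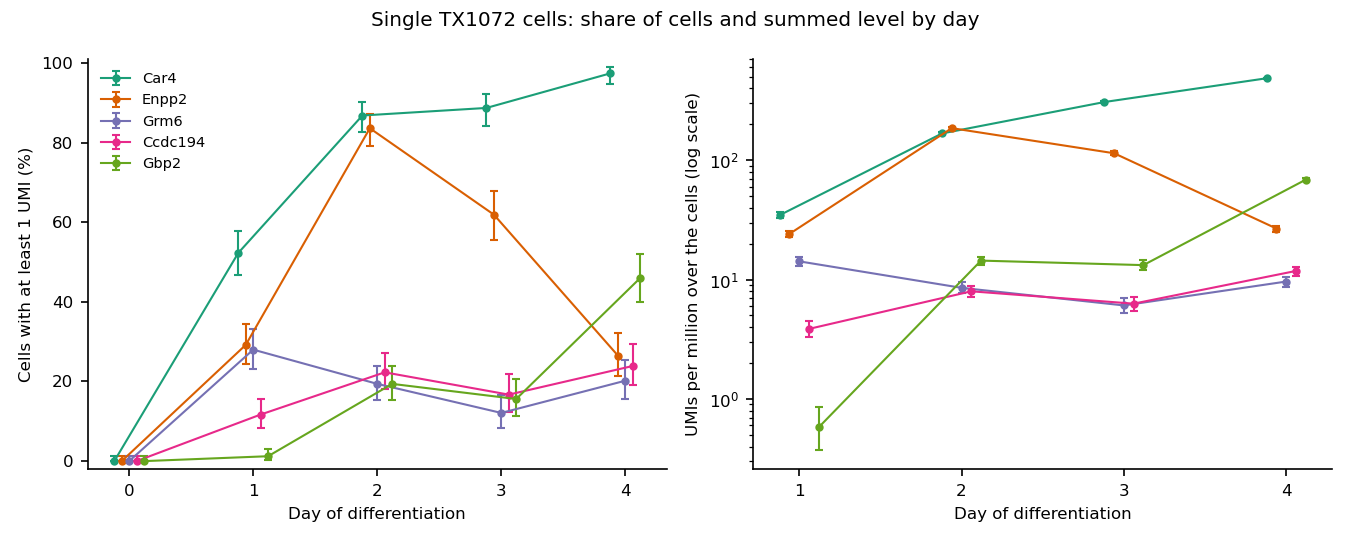
Left, the share of retained cells with at least 1 UMI (y axis, percent, bars are exact Clopper-Pearson intervals) against the day (x axis) for the 5 genes. Right, the CPM of the summed UMIs on a log axis for days 1 to 4, with Poisson intervals. Car4 climbs to 97.4% of cells, Enpp2 peaks at 83.6% on day 2, and the other genes are found in under 50% of the cells on every day.

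Car4 was detected in 52.3% (46.7 to 57.8), 86.8% (82.7 to 90.2), 88.7% (84.2 to 92.3) and 97.4% (94.8 to 99.0) of cells on days 1 to 4, while its level went from 34.6 to 167, 306 and 484 CPM of UMIs. After each cell was thinned to 40000 UMIs, which left out no cell, the shares were 37.2%, 79.5%, 84.4% and 94.5%. Between days 2 and 4 the median of the positive cells went from 17.5 to 60 UMIs.

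Enpp2 was in 29.2% (24.3 to 34.5), 83.6% (79.2 to 87.3), 61.9% (55.6 to 67.8) and 26.5% (21.3 to 32.1) of cells on days 1 to 4, and thinned in 21.2%, 75.4%, 54.1% and 19.1%. Its level was 24.1, 185, 114 and 26.7 CPM of UMIs. Days 1 and 4 had similar shares on either side of the peak. At day 4 the tenth of the cells with the most Enpp2 held 83.3% of its UMIs, against 37.5% at day 2. The 46 day 4 cells without a Nanog UMI had an Enpp2 level of 1.57 CPM of UMIs (0.811 to 2.74), and the 226 with one had 31.8 (30.0 to 33.6). The shares of cells with Enpp2 were closer, at 15.2% and 28.8%. On day 1 both measures had the opposite order, with levels of 39.4 (35.7 to 43.5) in the 83 cells without Nanog and 19.1 (17.6 to 20.7) in the 242 others, and shares of 37.3% and 26.4%. On day 2 the levels were 201 and 148 and the shares 84.1% and 82.4%. On day 3 the level was higher without Nanog (142 and 99.2) but the share was not (60% and 62.9%). The levels of Grm6 and Ccdc194 were likewise higher without Nanog at day 1 (19.5 and 12.4 for Grm6, 6.80 and 2.91 for Ccdc194) and lower at day 4 (5.88 and 10.4, 4.84 and 13.2). Gbp2 was higher without Nanog at day 4, with 84.6 and 65.3 CPM of UMIs, and Car4 lower, with 428 and 495. The cells without Nanog had a median of 184487 UMIs at day 4, against 169985 in the others.

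Grm6 was in 28.0% (23.2 to 33.2), 19.4% (15.3 to 24.0), 12.1% (8.34 to 16.7) and 20.2% (15.6 to 25.5) of cells on days 1 to 4, and thinned in 19.4%, 14.7%, 8.17% and 13.6%. Its level, 14.2, 8.52, 6.07 and 9.62 CPM of UMIs, was highest at day 1 as in bulk. Ccdc194 was in 11.7% (8.41 to 15.7), 22.3% (18.0 to 27.1), 16.7% (12.4 to 21.9) and 23.9% (19 to 29.4) of cells, thinned in 8.00%, 14.4%, 11.3% and 16.2%, with 3.86, 7.97, 6.28 and 11.8 CPM of UMIs. The intervals of its shares on days 2 to 4 overlapped. Its level at day 4 (10.8 to 12.8) lay above that of day 2 (7.14 to 8.87) as far as counting error goes. The tenth of the cells with the most Ccdc194 held 80.4% of its UMIs at day 2 and 83.9% at day 4, with up to 62 in a cell. With 1 culture per day, these intervals do not establish a difference between the days. In TX1072 bulk day 4 lay below day 2, but only slightly in replicate 1, which came from the same cultures as the cells.

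Gbp2 was the rarest at first. It was in 1.23% (0.336 to 3.12), 19.4% (15.3 to 24.0), 15.6% (11.4 to 20.6) and 46.0% (39.9 to 52.1) of cells on days 1 to 4, thinned in 0.923%, 15.8%, 11.7% and 31.6%. Its level was 0.579, 14.4, 13.2 and 68.5 CPM, and the intervals of days 2 and 3 overlapped (13.2 to 15.5 and 12 to 14.5). In TX1072 bulk the mean was higher at day 3 than at day 2, with overlapping replicates. At day 4 the tenth of the cells with the most Gbp2 held 72.7% of its UMIs, up to 187 in a cell.

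**Figure D3:**
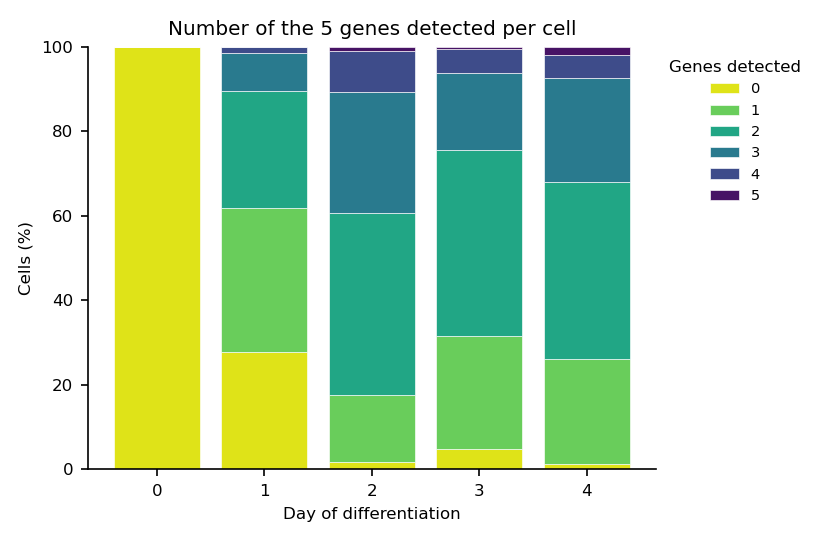
Stacked bars give the percentage of retained cells (y axis) in which 0 to 5 of the genes had a UMI, for each day (x axis). All 277 day 0 cells have none, and the share with 3 or more is 10.5%, 39.3%, 24.5% and 32.0% on days 1 to 4.

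Cells without any of the 5 genes made up 27.7%, 1.76%, 4.67% and 1.10% on days 1 to 4, and all 5 genes were found together in 3, 1 and 5 cells on days 2 to 4. Shares of cells with 2 of the genes were compared as a description. At day 1, Enpp2 was in 35.3% of the 170 cells with Car4 and in 22.6% of the 155 without, Grm6 in 33.5% and 21.9%, but the cells with Car4 were also deeper, with median totals of 130069 and 120427 UMIs, and the part of depth was not tested. At day 4 Gbp2 was in 38.9% of the 72 cells with Enpp2 and in 48.5% of the 200 without, at medians of 170840 and 171289 UMIs. On day 2 Gbp2 was in 19.6% of the cells with Enpp2 and 17.9% of those without, and on day 3 in 15.7% and 15.3%. Spliced counts are UMIs that lie wholly in exons, and unspliced counts are those that overlap introns. Of the Car4 counts, 1.05% were unspliced at day 1 (0.587 to 1.72) and 2.95% at day 4 (2.73 to 3.18). All genes together had 13.3% and 11.3%. According to the study, polyA stretches have been proposed as the source of intronic reads. The unspliced share of a gene therefore does not measure how far its RNA is spliced. The unspliced share of Enpp2 was 17.2% (15.1 to 19.5), 8.33% (7.75 to 8.95), 9.17% (8.28 to 10.1) and 14.1% (12.3 to 16.1) on days 1 to 4. This share was lowest at day 2, when the level was highest, but the intervals of days 2 and 3 overlapped.

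SNPs between the strains assign reads to an allele, a measure that an increase in total counts does not set. Exons of the 5 genes hold 5 such SNPs in Car4, 42 in Enpp2, 53 in Grm6, 5 in Ccdc194 and 7 in Gbp2. For Grm6, most allele-specific counts came from the Cast allele in every library of all 3 lines from day 1. The B6 share at day 4 was 21.8%, 19.8% and 32.1% in TX1072, 18.5%, 21.5% and 18.5% in TXdXicB6 and 24.1%, 18.0% and 22.0% in TXdXicCast. The log2 ratios of B6 to Cast were -1.68 ± 0.20 (SE), -2.07 ± 0.15 and -1.88 ± 0.16, with edgeR adjusted p of 5.5e-10, 9.66e-21 and 1.66e-16 over all autosomal genes tested. Of these, 35.4%, 37.2% and 36.2% passed in either direction.

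**Figure D4:**
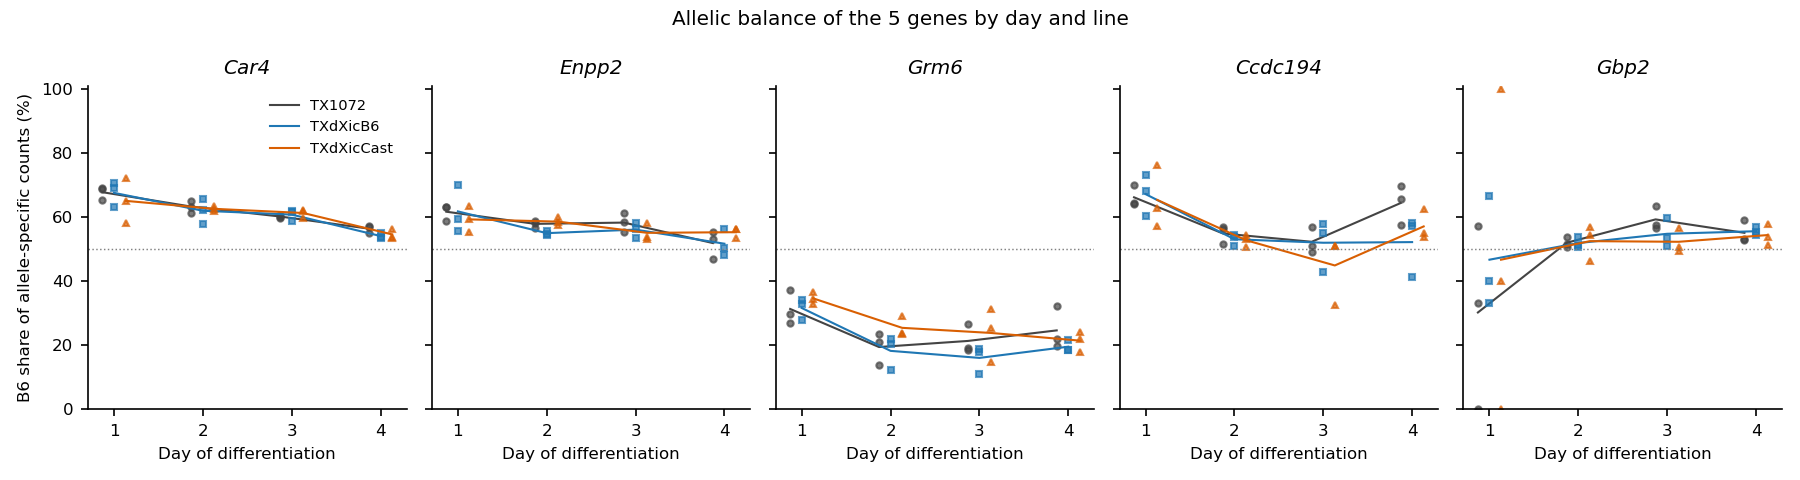
The B6 share of allele-specific counts (y axis, percent) is plotted against days 1 to 4 (x axis) for each gene. Points are replicates, lines join the means of the 3 lines, and the dotted line marks 50%. Grm6 lies below 50% in all libraries and Car4 descends to between 53.5% and 57.1% at day 4, while Gbp2 at day 1 rests on under 20 allele-specific counts per library.

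The 250 bases before the Grm6 start are shown because 3 listed SNPs fall within them, 236, 149 and 148 bases before the start (GRCm38.p6, plus strand, chr11:50850435-50850684). Capitals mark the SNP positions, at which the reference carries the B6 base in 3 of 3.
Grm6: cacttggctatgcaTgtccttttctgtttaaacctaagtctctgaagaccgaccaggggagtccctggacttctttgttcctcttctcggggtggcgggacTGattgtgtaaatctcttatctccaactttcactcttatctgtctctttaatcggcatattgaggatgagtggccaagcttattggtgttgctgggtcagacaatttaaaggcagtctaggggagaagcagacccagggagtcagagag
The windows of Car4, Ccdc194 and Gbp2 held 1, 3 and 0 listed SNPs. Whether any of them bears on the ratio was not tested.

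Car4 leaned the other way. Its B6 share was 65.4%, 69.2% and 68.9% in TX1072 at day 1 and 55.2%, 57.0% and 57.1% at day 4, with no overlap. The log2 ratio at day 4 was 0.31 ± 0.05 in TX1072 (edgeR adjusted p = 3.93e-06), 0.19 ± 0.05 in TXdXicB6 (0.0027, and 0.0588 without replicate 1) and 0.22 ± 0.05 in TXdXicCast (0.000545, and 0.0783 without replicate 1). For Enpp2 it was 0.04 ± 0.10, 0.08 ± 0.07 and 0.29 ± 0.09, of which the TXdXicCast value passed (edgeR adjusted p = 0.797, 0.40 and 0.00978, the last 0.131 without replicate 1 and 0.0512 without replicate 2). Ccdc194 passed in TX1072 with 0.81 ± 0.19 (0.000437) and had 0.21 ± 0.17 and 0.29 ± 0.19 in TXdXicB6 and TXdXicCast (0.37 and 0.228). Gbp2 had 0.24 ± 0.13, 0.27 ± 0.13 and 0.21 ± 0.12 and passed in none of the lines (0.136, 0.104 and 0.164). No day 4 ratio differed between the deletion lines (adjusted p between 0.76 and 1), where 1.14% of genes did.

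The change of the allelic ratio from day 1 to day 4 was tested after the values had been seen. Of the autosomal genes, 13.7% changed in either direction in TX1072, 14.1% in TXdXicB6 and 14.3% in TXdXicCast. For Car4 the log2 ratio moved toward balance in all 3 lines, by -0.70 ± 0.11, -0.79 ± 0.14 and -0.65 ± 0.13 (edgeR adjusted p = 2.89e-06, 4.57e-06 and 9.7e-05, the last 0.0609 without replicate 3). Grm6 moved further from it in TXdXicB6 and TXdXicCast, by -0.93 ± 0.20 and -0.91 ± 0.21 (0.000325 and 0.000961), and had -0.47 ± 0.26 in TX1072 (0.27). Enpp2 changed in TX1072, by -0.59 ± 0.16 (0.0057, and 0.238 without replicate 1), with -0.51 ± 0.20 (0.0716, but -0.86 and 0.00883 without replicate 1) and -0.24 ± 0.17 (0.427) in the deletion lines. The absolute log2 ratio that 10% of all genes exceeded went from 1.68 at day 1 to 1.26 at day 4 in TX1072, from 1.76 to 1.29 in TXdXicB6 and from 1.80 to 1.32 in TXdXicCast.

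**Figure D5:**
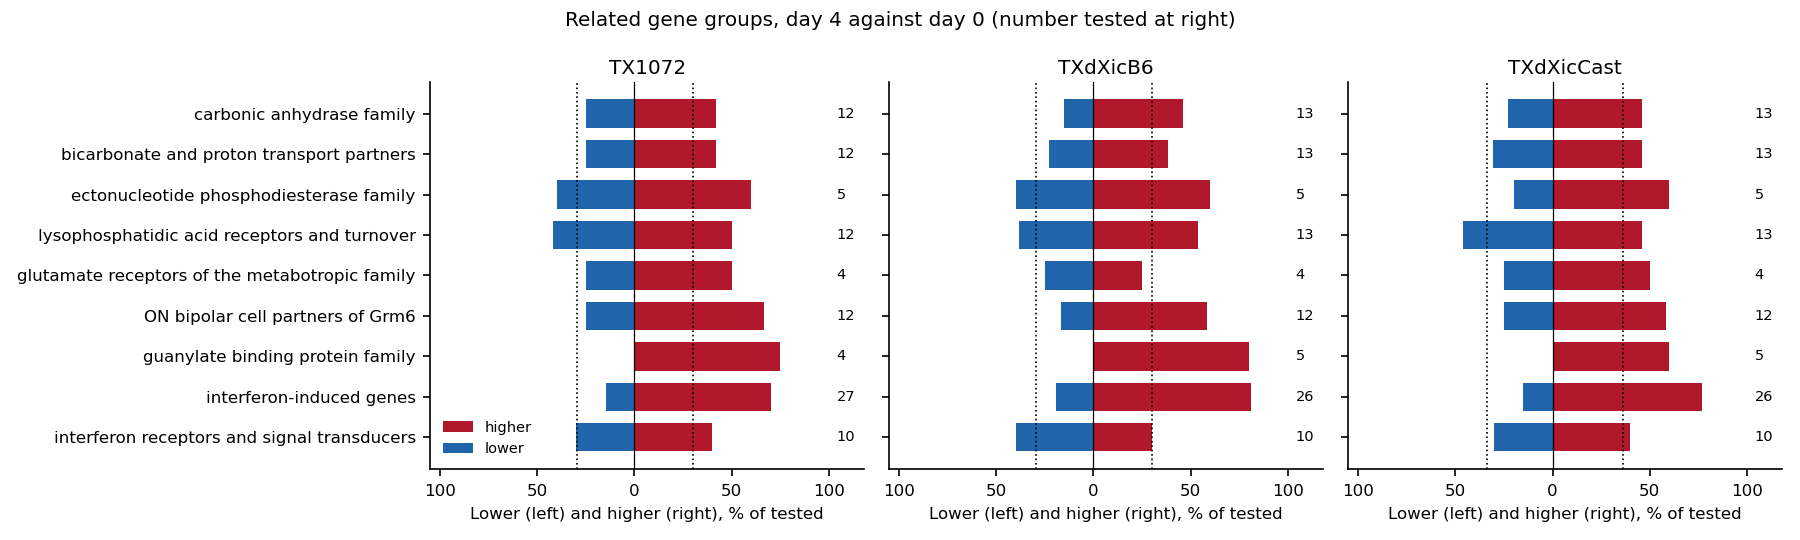
For 9 groups of genes related to the 5, bars give the percentage of tested members that were higher (right, red) or lower (left, blue) at day 4 than at day 0 (edgeR adjusted p below 0.05), in TX1072, TXdXicB6 and TXdXicCast. Dotted lines mark the shares over all genes and the numbers tested stand at the right. Of the interferon-induced genes tested, 19 of 27 were higher in TX1072, 12 of which passed the filter on low counts only through later days.

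Groups of related genes, with the 5 genes left out, were compared between days 0 and 4. Genes that did not reach the minimum of the filter on low counts (10 counts at the median library size) in every day 0 library entered the test only through later days, so that their direction was largely set by the filter. In TX1072, 30.2% of all genes were higher at day 4 and 29.4% lower, in TXdXicB6 30.0% and 29.5%, and in TXdXicCast 36.2% and 33.6%. Of the interferon-induced genes around Gbp2, 27 of 32 were tested in TX1072, of which 19 rose, 4 fell and 4 did not pass, with a median log2 change of 3.01 against -0.03 over all genes. Of the 14 that reached the minimum at day 0, 7 rose and 3 fell, and the other 12 that rose did not reach it. The counts of higher, lower and not passed were 21, 5 and 0 of 26 in TXdXicB6, and 20, 4 and 2 of 26 in TXdXicCast. Among those that reached the minimum, 9 rose and 5 fell of 14 in TXdXicB6, and 7 rose and 4 fell of 13 in TXdXicCast. Irgm1, an immunity-related GTPase, went from 0.258 ± 0.157 to 47.7 ± 4.50 CPM, and Tap1, a peptide transporter of antigen presentation, from 0.993 ± 0.52 to 37.6 ± 4.96. H2-D1, a class I histocompatibility gene, went from 4.16 ± 0.934 to 33.4 ± 3.18 CPM. The members that fell included the antiviral Oas1a, from 50.0 ± 6.57 to 4.13 ± 0.174 CPM, Xaf1, from 24.3 ± 4.44 to 0.470 ± 0.0671, and the interferon signal transducer Irf9, from 17.4 ± 3.64 to 7.82 ± 0.283.

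Within the guanylate-binding family, 4 of 10 other members were tested in TX1072, of which Gbp3, Gbp7 and Gbp4 rose and 1 did not pass. None of these 3 reached the minimum of the filter at day 0. Gbp3 went from 0 to 10.6 ± 1.39 CPM, Gbp7 from 0.0492 ± 0.0246 to 4.01 ± 0.530 and Gbp4 from 0.372 ± 0.190 to 1.93 ± 0.434. Summed over all 10, the family went from 1.81 ± 0.402 to 18.8 ± 1.46 CPM. TXdXicB6 had 4 of 5 higher and TXdXicCast 3 of 5, with none lower, and in each line 3 of those had not reached the minimum at day 0. Receptors and signal transducers of interferon were mixed, with 4 higher, 3 lower and 3 not passed of 10 in TX1072, 3, 4 and 3 in TXdXicB6, and 4, 3 and 3 in TXdXicCast. Ifngr1 went from 6.81 ± 0.431 to 14.2 ± 1.75 CPM, and Socs3, a feedback inhibitor that Lif induces through Stat3, from 66.8 ± 3.79 to 7.44 ± 0.992.

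Beside Car4, 5 of the 12 carbonic anhydrases tested in TX1072 were higher and 3 lower, 6 and 2 of 13 in TXdXicB6, and 6 and 3 of 13 in TXdXicCast. Of those that rose, 2, 4 and 4 had not reached the minimum of the filter at day 0, and among those that had, 3 rose and 3 fell in TX1072, 2 and 2 in TXdXicB6, and 2 and 3 in TXdXicCast. The cytosolic Car2 went from 11.3 ± 2.05 to 217 ± 7.97 CPM, and Car14, another membrane form, from 0.152 ± 0.0343 to 16.7 ± 9.97, whereas Car8 fell from 10.4 ± 1.28 to 0.397 ± 0.100. Bicarbonate and proton transporters were higher in 5 and lower in 3 of 12 (5 and 3 of 13 in TXdXicB6, 6 and 4 of 13 in TXdXicCast). Among them the sodium-bicarbonate carrier Slc4a4 went from 3.98 ± 0.701 to 33.5 ± 1.36 CPM and the lactate exporter Slc16a3 from 47.6 ± 9.13 to 287 ± 45.5, while Slc4a5 fell from 72.0 ± 13.3 to 6.29 ± 0.715.

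Of the other Enpp genes, 3 of 5 tested were higher and 2 lower in TX1072 (3 and 2 in TXdXicB6, 3 and 1 in TXdXicCast). Of those that rose, 3, 2 and 3 had not reached the minimum of the filter at day 0, so that 0, 1 and 0 of those that had reached it rose. Enpp3 went from 0.236 ± 0.151 to 58.2 ± 3.61 CPM and Enpp7 from 2.77 ± 1.00 to 0.0206 ± 0.0179. Genes of LPA reception and turnover were split, with 6 higher and 5 lower of 12 (7 and 5 of 13 in TXdXicB6, 6 and 6 of 13 in TXdXicCast). The receptor Lpar6 went from 8.56 ± 1.53 to 51.4 ± 12.4 CPM, while the receptor Lpar1 went from 100 ± 14.1 to 27.4 ± 4.20 and the LPA phosphatase Plpp3 from 47.3 ± 6.62 to 9.69 ± 1.22.

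Beside Grm6, 4 of 7 metabotropic glutamate receptors were tested in TX1072, with 2 higher and 1 lower (1 and 1 in TXdXicB6, 2 and 1 in TXdXicCast), all at low levels, such as Grm8 with 2.61 ± 0.317 CPM at day 4. None of the receptors that rose had reached the minimum of the filter at day 0, and the 1 that had fell in each line. Its partners in ON bipolar cells moved in both directions. In TX1072, 8 of 12 were higher and 3 lower (7 and 2 in TXdXicB6, 7 and 3 in TXdXicCast), but among those that reached the minimum at day 0, 2 rose and 3 fell in TX1072, 1 and 2 in TXdXicB6, and 3 and 3 in TXdXicCast. Trpm1, the channel that Grm6 closes in these cells, fell from 150 ± 16.8 to 0.353 ± 0.0816 CPM. The G protein subunit Gnao1 rose from 0.201 ± 0.155 to 4.75 ± 1.72 CPM.

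Cell state markers moved with the 5 genes. All 12 naive markers fell in TX1072 and both deletion lines, and their sum went from 5340 ± 234 to 485 ± 59.5 CPM in TX1072, with Nanog the most abundant at day 4 (223 ± 22.6). General pluripotency genes were mixed, with 3 of 6 higher and 3 lower in TX1072 (3 and 2 in TXdXicB6, 2 and 3 in TXdXicCast). Formative markers rose in 9 of 9 in TX1072 and TXdXicB6 and 8 of 9 in TXdXicCast, with Fgf5 from 0.116 ± 0.0723 to 135 ± 5.00 CPM. Mesoderm markers rose in 5 of 8 (4 in TXdXicB6 and 5 in TXdXicCast, with 1 lower in each), endoderm markers in 8 of 8 (7 of 9 in each deletion line, with 1 lower in TXdXicB6), neural markers in 4 of 5 (3 of 6, with 1 lower in TX1072 and none in the deletion lines) and trophoblast markers in 4 of 7 (4 of 8), the last with 2 lower in TX1072, 3 in TXdXicB6 and 2 in TXdXicCast. Two-cell-like genes were higher in 7 of 7, 7 of 7 and 6 of 7, but none of the 7 reached the minimum of the filter at day 0, and their sum was only 3.21 ± 1.20 CPM at day 4 in TX1072. Of the endoderm markers that rose, 5 of 8, 4 of 7 and 5 of 7 had not reached it, and of the formative markers 1 in each line. It was 2, 2 and 1 of the mesoderm markers that rose, 2, 2 and 3 of the neural and 2, 2 and 1 of the trophoblast markers.

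Markers of fibroblasts and mesenchyme rose in 6 of 9 in TX1072, 5 in TXdXicB6 and 6 in TXdXicCast, with a sum over the 10 genes that went from 26.0 ± 4.45 to 550 ± 34.7 CPM. Of those that rose, 5 in each line had not reached the minimum of the filter at day 0. The contractile genes Tagln and Acta2 made up 420 ± 20.8 and 109 ± 22.4 CPM of it, and the matrix proteoglycan gene Dcn rose from 0.06 ± 0.104 to 3.96 ± 0.642. The collagen genes Col1a1 and Col1a2 fell in TX1072, to 4.11 ± 0.892 and 1.98 ± 0.467 CPM, but Col1a1 had a log2 change of -0.17 in TXdXicCast (edgeR adjusted p = 0.614). At day 4 this sum was 309 ± 35.7 CPM in TXdXicB6 and 683 ± 86.7 in TXdXicCast. Whether fibroblasts or mesenchyme were present, and what part they would have in the 5 genes, was not tested. Endothelial markers were higher in 3 and lower in 2 of 7 (3 and 3 in TXdXicB6, 1 and 3 in TXdXicCast), with a sum that went from 180 ± 22.8 to 47.0 ± 4.10 CPM and Emcn at 0. Of those that rose, 2, 2 and 0 had not reached the minimum at day 0. Blood markers were higher in 1 and lower in 2 of 5 (1 and 2 in TXdXicB6, 2 and 2 in TXdXicCast, 1 of those that rose in each line not having reached the minimum), with a sum of 8.68 ± 1.50 CPM at day 4 and the macrophage gene Lyz2 at 0.

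The genes whose course was most like each of the 5 were taken by Pearson's r of log2(CPM + 1) over the 15 TX1072 libraries, among 11862 genes, as a description. These libraries share their days, so high values are common. For Car4 they were Ece1 (r = 0.996), the iron exporter Slc40a1 (0.995) and Arhgap29 (0.994), and Slc40a1 went from 0.321 ± 0.199 to 102 ± 12.6 CPM. For Enpp2 they were Map7d3 (0.994), the kinase gene Pim2 (0.992) and Myb (0.990), and Map7d3 had 0.257, 12.9, 58.3, 56.7 and 17.9 CPM on days 0 to 4. For Grm6 they were Etv4 (0.990), an ETS factor that ERK signaling induces, Pdzd2 (0.985) and Id2 (0.981), and Etv4 had 0.596, 83.8, 22.3, 20.9 and 29.1 CPM. For Ccdc194 they were Vrtn (0.995), Platr22 (0.992) and Igsf9 (0.991), and for Gbp2 its relative Gbp3 (0.994), Epn3 (0.991) and Pxdc1 (0.989). Over the 30 deletion-line libraries the same 15 pairs had r between 0.955 and 0.995. With log2(CPM + 0.1), 2 of the 3 genes stayed for each gene but Car4, for which none did. With ranks (Spearman), 1 of the 3 stayed for Ccdc194 and none for the others.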

How the data were processed

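Bulk RNA of 45 libraries (3 lines, 5 days, 3 replicates) and the RNA of single TX1072 cells were analysed. The authors deposited raw counts per gene and, for reads that cover SNPs, raw counts per allele. Per the submitters' processing notes, STAR 2.5.2b, featureCounts and mm10 were used, and SNP positions were masked before alignment. The strand setting is not given in the sources used here. Deposited single-cell counts are UMI counts, with spliced and unspliced counts beside them, and the list of retained cells was used as given. The single-cell cultures are the same cell population as bulk replicate 1 of TX1072.

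The 5 genes, the gene lists and the tests were chosen with earlier results of these data known. Counts were scaled with TMM factors and tested with edgeR 4.0.16 (quasi-likelihood, filterByExpr, Benjamini-Hochberg adjustment over all genes tested, threshold 0.05) in R 4.3.3, with 18871 genes in TX1072 and 19885 in the deletion lines. Alleles were tested on allele-specific counts with a term for each library. The tests were also run on simulated data, the outcome of which is not given here. Named genes were the 5, the 3 most alike to each, and in each list up to 3 that rose and 3 that fell by adjusted p. DESeq2 1.42.0, other scalings, filters and leaving out replicates were tried. Python 3.11.15, SciPy 1.17.1 and pandas 2.3.3 served the single-cell steps.

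Replicates with different numbers were differentiated on different days (reporting summary of the study), which pairs libraries of the same number. Deviations from the group means correlated with a median of 0.322 between libraries of the same number and deletion line (60 pairs, 54 above 0.1) and -0.225 between different numbers, and with 0.20 (30 pairs, 18 above 0.1) and -0.118 in TX1072. No pair of libraries held identical counts. RNA of TXdXicCast day 0 was degraded and fragmented for a shorter time at a lower temperature.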

Additional observations from a re-analysis of the deposited data

Results flagged for a closer look

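The gain of Enpp2 from day 1 to day 4 differed between the deletion lines by -1.86 on the log2 scale (TXdXicCast minus TXdXicB6, edgeR adjusted p = 0.0176). That of Gbp2 differed by 1.44 (adjusted p = 0.0124), and its gain from day 2 to day 4 by 1.34 (adjusted p = 0.00212). The Gbp2 call from day 1 was lost without replicate 1, 2 or 3 (edgeR adjusted p = 0.182, 0.15 and 0.227). The Enpp2 call was lost without replicate 1 or 2 (0.272 and 0.15), and the Gbp2 call from day 2 without replicate 2 or 3 (0.379 and 0.0574).

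Among the 10 columns of capture sites of each day, 2 stood apart from the other columns. At day 4 the lowest column had Car4 in 90.3% of its cells, with the next at 95.7%, and at day 3 the highest column had Enpp2 in 88.9%, with the next at 66.7%. In all, 20 groups of columns were looked at, and chance alone marks about 1 in 20.

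Capture sites listed as empty also held UMIs of the genes. In the 44 such sites of days 1 to 4, whose median total was 10047 UMIs, there were 154 UMIs of Car4 in 29 sites, 23 of Enpp2 in 11, 2 of Grm6 in 2, 5 of Ccdc194 in 4 and 30 of Gbp2 in 10. At the level of the retained cells the same totals would hold 172, 29.0, 4.52, 4.40 and 20.3 UMIs in the same order.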

How the results depend on the processing

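All calls of an increase over day 0 in the deletion lines kept their direction and their call in every setting tried, and the replicate block changed no call other than those given here. Ccdc194 had values near 0, so that its sign turned: in TXdXicB6 from day 2 to day 4 to 0.01 with DESeq2, with DESeq2 size factors or with no filter on low counts, 0.0 with the replicate block and 0.02 with TMM over autosomal genes, and in TXdXicCast from day 1 to day 4 to 0.01 with DESeq2, DESeq2 size factors or TMM over autosomal genes. The line difference of Ccdc194 from day 1 to day 4 passed with DESeq2 (-1.14), no filter (-1.14) and the replicate block (-1.18), and that of Enpp2 from day 2 to day 4 with no filter (-1.3) and the replicate block (-1.32). Genes that differed between the lines from day 1 to day 4 were 130 higher and 19 lower, and 292 and 62 with DESeq2, 333 and 79 with no filter, 212 and 43 with the replicate block. From day 2 to day 4 they were 46 and 2, and 148 and 34, 203 and 43, 100 and 15 in the same settings, with 4 lower under TMM over autosomal genes. The cause was not tested. Scaling by library totals gave Enpp2 in TX1072 at day 4 a log2 value of 10.09 and moved the Ccdc194 peak in TXdXicB6 to day 4. With a shared library size of both alleles the Gbp2 ratio in TX1072 was 0.31 and passed. At day 4, thinned shares of cells were 94.5% for Car4, 19.1% for Enpp2, 13.6% for Grm6, 16.2% for Ccdc194 and 31.6% for Gbp2, shares with at least 2 UMIs 21% for Enpp2, 18.0% for Ccdc194 and 33.1% for Gbp2, and Car4 was in 93.2% of all 400 capture sites.

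Leaving out each replicate in turn gave these ranges. From day 2 to day 4 in TXdXicB6, Enpp2 lay between -1.04 and -0.72, Ccdc194 between -0.08 and 0.07, and the genes lower between 2776 and 4013. In TXdXicCast, Enpp2 from day 1 to day 4 lay between 0.64 and 1.49 and Ccdc194 between -0.24 and 0.27, and from day 2 to day 4 Grm6 lay between -0.69 and -0.63 and Ccdc194 between -0.75 and -0.43. Line differences from day 0 to day 4 lay between -2.03 and 0.61 for Car4, -4.34 and 0.17 for Enpp2, -0.43 and 0.05 for Ccdc194 and -1.2 and 2.99 for Gbp2, with 75 to 1025 genes higher and 23 to 787 lower, the fewest without replicate 3. From day 1 to day 4 they were -2.08 to -1.51 for Enpp2 and 1.2 to 1.62 for Gbp2, with 0 to 28 genes higher and 0 to 5 lower. From day 2 to day 4, Gbp2 had 1.21 to 1.53, with 0 to 5 genes higher and 0 lower. TX1072 day 4 log2 values over day 0 were 11.84 to 13.41 for Car4 and 9.52 to 10.6 for Enpp2, and the Ccdc194 peak in TXdXicB6 fell on day 2 to 4. Allelic ratios at day 4 were 0.17 to 0.21 for Car4 in TXdXicB6 and 0.16 to 0.25 in TXdXicCast, and for Enpp2 -0.05 to 0.18 in TX1072, -0.07 to 0.15 in TXdXicB6 and 0.26 to 0.31 in TXdXicCast. Their change from day 1 was -0.79 to -0.42 for Car4 in TXdXicCast, -0.76 to -0.4 and -0.86 to -0.23 for Enpp2 in TX1072 and TXdXicB6, -0.35 to 0.06 for Ccdc194 in TX1072, and -0.12 to 1.0 and -0.56 to 1.97 for Gbp2 in TXdXicB6 and TXdXicCast. Day 0 counts of 0 to 15 per group limit every fold over day 0.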
